A study of Mus musculus with 12 samples.

Results

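The 5 genes described here, all tied to meiotic maturation or the cell cycle, were measured on these arrays of mouse oocyte RNA: the kinases Cdk1, Map2k1 and Cdk4, the ubiquitin ligase inhibitor Fbxo43 and the phosphatase subunit Ppp2ca. Their probes were taken by gene symbol from the platform annotation, and the genes themselves were chosen by role with results of an earlier analysis of the same arrays in view. Which measured values entered that choice is not recorded. Their ratios between ages are therefore treated as used and given as a description, with no test. The 5 are among 3089 genes named by the 4262 probes with a single symbol, out of 22575 probes on the array. The members had 6 single-gene probes (2 for Map2k1 and 1 for each of the other 4 genes), and 1 further probe listed Ppp2ca together with Cdkl3, its neighbour in the RefSeq annotation of the GRCm38.p6 assembly, with 0 genes between them.

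RNA of oocytes from aged mice was hybridised against RNA of oocytes from young mice on 12 arrays with 2 dyes each. The labels give no strain, no age in weeks or months, no maturation stage and no number of oocytes, and separate animals or pools behind the numbered RNAs are not mentioned. Pair 1 set aged RNA 1 against young RNA 1, pair 2 set aged RNA 2 against young RNA 5, and pair 3 set aged RNA 3 against young RNA 2. Every pair lay on 4 arrays, 2 labellings in both dye orientations, and these 4 counted as 1 replicate.

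Values below are log2 ratios, aged to young, from which the array median was subtracted, so that 0 is the middle of all probes and -1 is a ratio of 0.5. Their direction is likely rather than settled. It takes the deposited values as log10 ratios of Cy5 over Cy3, the usual convention for such arrays, which no source used here states. With the opposite convention every sign below turns. As deposited, arrays of opposite dye orientation correlated over all probes at r between -0.31 and -0.06 in pair 1 and between 0.03 and 0.27 within pairs 2 and 3, whereas dye ratios set by age alone would correlate below 0. If instead every deposited value already had aged RNA on top, Cdk1 would lie at 0.22 and Map2k1 at 0.13, both above 0. A ratio holds no level, so neither the abundance of these mRNAs nor the signal behind a ratio is known, and fewer cells of a type and less RNA per cell cannot be told apart.

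The grown oocyte rests in prophase of meiosis and stores the mRNAs it will need later. Resumption of meiosis is driven by Cdk1 bound to cyclin B, the M-phase promoting factor. In the maturing oocyte the kinase Mos activates Map2k1, a MAP kinase kinase, and this pathway helps to shape the spindle and to hold the egg in metaphase. Fbxo43, also called Emi2, holds that arrest by inhibiting the anaphase-promoting complex until the calcium signal of fertilization leads to its destruction. Ppp2ca is a catalytic subunit of protein phosphatase 2A, which removes phosphates from targets of Cdk1. Cdk4 is the cyclin D kinase of the G1 phase of the mitotic cycle.

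The stretches of 250 bases before the gene starts of the members found in RefSeq (GRCm38.p6, each on the strand of its gene) are shown as background. A link between their letters and the ratios was not tested. Capitals mark matches on either strand to the CCAAT box (CCAAT), the cell cycle homology region of M-phase genes (TTTGAA), the E-box (CACGTG) and the cyclic AMP response element (TGACGTCA).
Cdk1 (chr10:69352913-69353162, minus strand): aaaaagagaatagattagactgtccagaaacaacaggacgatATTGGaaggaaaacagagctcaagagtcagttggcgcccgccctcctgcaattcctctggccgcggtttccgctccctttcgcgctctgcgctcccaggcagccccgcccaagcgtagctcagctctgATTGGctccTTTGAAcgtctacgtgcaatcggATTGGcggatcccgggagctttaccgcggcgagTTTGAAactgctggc
Map2k1 (chr9:64253606-64253855, minus strand): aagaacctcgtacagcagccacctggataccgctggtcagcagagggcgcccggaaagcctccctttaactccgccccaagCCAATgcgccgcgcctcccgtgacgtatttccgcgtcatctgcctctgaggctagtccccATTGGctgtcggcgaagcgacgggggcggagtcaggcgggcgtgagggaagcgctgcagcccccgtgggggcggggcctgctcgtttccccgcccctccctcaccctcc
Ppp2ca (chr11:52098574-52098823, plus strand): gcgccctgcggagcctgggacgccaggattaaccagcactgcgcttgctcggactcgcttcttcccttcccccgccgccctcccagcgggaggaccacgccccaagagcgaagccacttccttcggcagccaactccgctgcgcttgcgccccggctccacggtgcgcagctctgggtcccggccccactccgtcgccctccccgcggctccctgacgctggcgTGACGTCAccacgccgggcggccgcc
Cdk4 (chr10:127063285-127063534, plus strand): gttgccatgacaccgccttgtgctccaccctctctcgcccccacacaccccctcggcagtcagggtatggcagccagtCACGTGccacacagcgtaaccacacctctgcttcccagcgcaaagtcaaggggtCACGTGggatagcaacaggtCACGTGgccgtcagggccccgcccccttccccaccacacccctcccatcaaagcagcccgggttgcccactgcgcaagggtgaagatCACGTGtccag

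The Cdk1 stretch held 3 CCAAT boxes and 2 cell cycle homology regions, and the Map2k1 stretch held 2 CCAAT boxes. The Ppp2ca stretch held 1 cyclic AMP response element, and the Cdk4 stretch held 4 E-boxes. No base lay in more than 1 match. Of 32851 stretches of the same length, 33.8% held a CCAAT box, 16% a cell cycle homology region, 6.02% an E-box and 1.55% a cyclic AMP response element. These matches describe the letters only, and no binding was measured. Fbxo43 had no entry in the promoter table.

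By their means over the pairs the members lay on 2 sides of the array median. Over all arrays, which share RNAs within a pair, Cdk1 and Map2k1, both below it, were hardly alike (r = 0.10). Among those above it, r was 0.89 for Fbxo43 and Cdk4, 0.60 for Ppp2ca and Cdk4 and 0.55 for Fbxo43 and Ppp2ca. Without pair 1 these values were -0.77, 0.44 and -0.55, and that of Cdk1 and Map2k1 was -0.86. Map2k1 was below the array median in each of the 3 pairs with both of its probes, and Cdk1 was below it in pairs 1 and 3 and near it in pair 2. Ppp2ca, Cdk4 and Fbxo43 lay far above it in pair 1, where the aged over young ratios were 5.33, 4.69 and 3.42 on the linear scale, and near or below it in pairs 2 and 3.

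**Figure D1:**
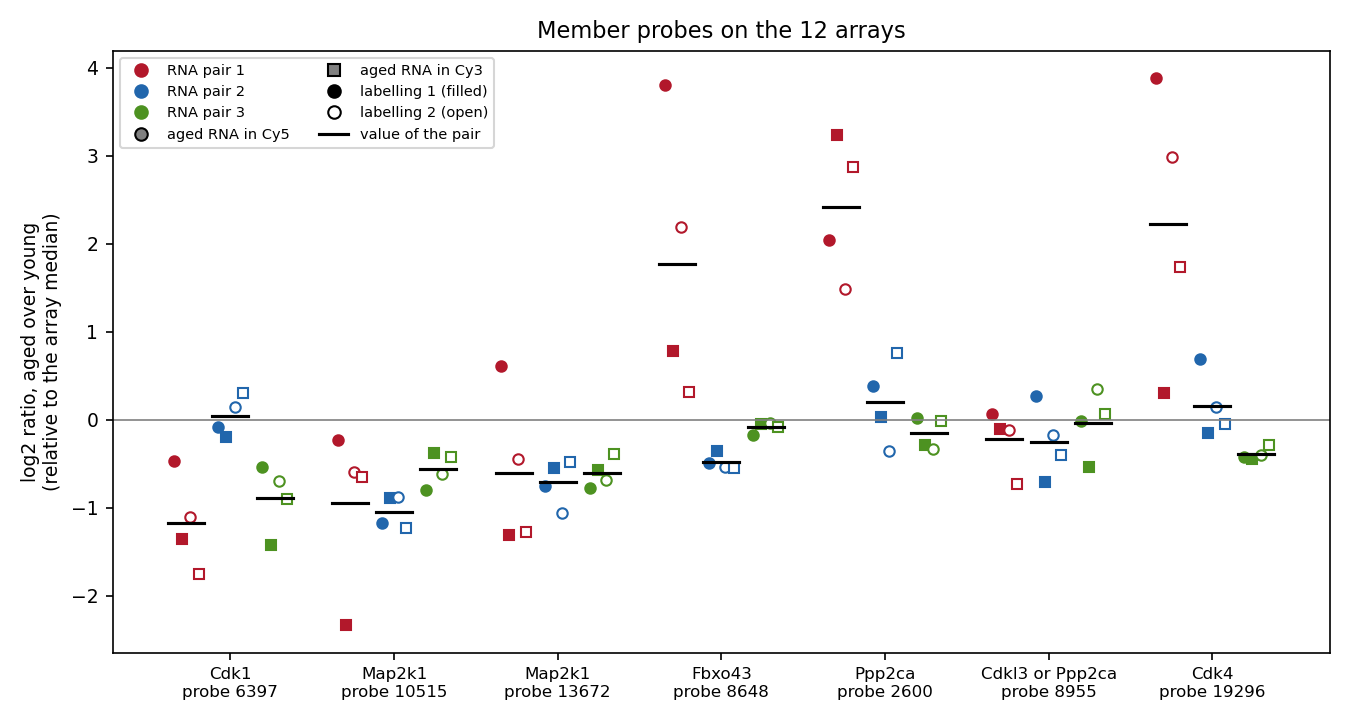
Log2 ratios, aged to young (vertical axis, centred on the array median), for the 7 probes that list a member, with a point for each of the 12 arrays and a black line for the value of each RNA pair. Colour gives the pair, circles and squares give the dye of the aged RNA, and filled and open symbols give labelling 1 and 2. The Map2k1 probes lie below 0 except on 1 array, while Fbxo43, the single-gene Ppp2ca probe and Cdk4 are high in pair 1 (red), where their pair values are 1.77, 2.41 and 2.23.

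In the lists of values that follow, the arrays of a pair are in the order labelling 1 with the aged RNA in Cy5, labelling 1 with it in Cy3, labelling 2 in Cy5 and labelling 2 in Cy3. Map2k1, the MAP kinase kinase activated by Mos, had a value of -0.74 ± 0.15 over its 2 probes (SD, n = 3 pairs), a ratio of 0.597. The pair values were -0.78, -0.88 and -0.58. All 3 lay on one side of 0.

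Probe 10515 of Map2k1 read -0.23, -2.33, -0.59 and -0.65 in pair 1. In pair 2 it read -1.17, -0.89, -0.88 and -1.23. In pair 3 it read -0.80, -0.37, -0.62 and -0.42. This probe was below 0 on 12 of 12 arrays, as were 0.862% of the 21569 probes with 12 values. Its widest spread was in pair 1, where the array of labelling 1 with aged RNA in Cy3 lay apart.

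Probe 13672 of Map2k1 read 0.61, -1.31, -0.44 and -1.27 in pair 1. In pair 2 it read -0.76, -0.55, -1.06 and -0.48. In pair 3 it read -0.78, -0.57, -0.69 and -0.38. It was below 0 on 11 of 12 arrays, and 2.52% of all probes were below 0 on at least 11. The exception was the labelling 1 array of pair 1 with aged RNA in Cy5, whose median was the lowest of all arrays (-0.316 on the log10 scale). Before centring the value on that array was -0.132 on the log10 scale, which is above that median. Without centring both Map2k1 probes had the sign of a lower aged signal on 12 of 12 arrays. On that array the middle of all probes had this sign too, so nothing is read from the uncentred count.

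The pair 1 values of Map2k1 averaged unlike dye orientations. With aged RNA in Cy5 and in Cy3 respectively, probe 10515 lay at -0.41 and -1.49 there, and probe 13672 at 0.08 and -1.29.

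The means of the 2 Map2k1 probes were -0.85 ± 0.26 and -0.64 ± 0.06 (SD, n = 3 pairs each), a difference of -0.21 ± 0.23. Within pair 1 probe 10515 lay below 97.1% of all probes, in pair 2 below 99.3% and in pair 3 below 96.8%. For probe 13672 the share was lowest in pair 1, at 91.6%, and was 97.3% in pair 2. Of the 867 genes with more than 1 single-gene probe, 32 (3.69%) had every probe below 0 in all 3 pairs, Map2k1 among them, and 15 (1.73%) had every probe above 0. Over the 12 arrays, which share RNAs within a pair, the 2 probes correlated at r = 0.586, and over the 8 arrays of pairs 2 and 3 at r = 0.251.

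Cdk1, the kinase of the M-phase promoting factor, had a value of -0.67 ± 0.64 (SD, n = 3 pairs), a ratio of 0.629, from probe 6397. The pair values were -1.17, 0.05 and -0.89, so that the spread between pairs was nearly as large as the mean. Without replicate 1 the mean was -0.42, and without replicate 2 it was -1.03. In pair 1 the probe read -0.47, -1.35, -1.11 and -1.75. In pair 2 it read -0.08, -0.20, 0.15 and 0.30. In pair 3 it read -0.53, -1.43, -0.69 and -0.90.

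The 8 arrays of pairs 1 and 3 were all below 0 for Cdk1 and did not overlap with the 4 arrays of pair 2, a split shown by 1.26% of the 21569 probes with 12 values. Cdk1 lay below 98.6% of all probes in pair 1 and below 98.9% in pair 3, but below only 44.8% in pair 2. Of 19 listed oocyte markers, 4 had a probe of their own. Zp2, a protein of the egg coat, was like Cdk1 highest in pair 2, with pair values of -1.69, 0.56 and -2.41, and so was the growth factor Bmp15, at -0.85, 0.06 and -0.14. Kit, a receptor of the growing oocyte, was highest in pair 3, at -0.95, -0.87 and -0.29, and the maternal-effect gene Dppa3 in pair 1, at 0.85, 0.47 and 0.53. The part of oocyte stage or content in the Cdk1 values was not tested.

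Fbxo43, the inhibitor of the anaphase-promoting complex, had a value of 0.40 ± 1.20 (SD, n = 3 pairs) from probe 8648. Its pair values were 1.77, -0.48 and -0.08, so that the mean rested on pair 1 and was -0.28 without it. In pair 1 the probe read 3.80, 0.78, 2.20 and 0.32. In pair 2 it read -0.49, -0.36, -0.54 and -0.54. In pair 3 it read -0.17, -0.05, -0.03 and -0.09.

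Every array of pair 1 was thus above 0 for Fbxo43 and every array of pairs 2 and 3 was below it, a split shown by 4 of 21569 probes (0.0185%). It uses the values in view when the members were chosen, so nothing is read from that share or from the other shares of this kind. In pair 1 the size of the ratio followed the dyes, at 3.0 with aged RNA in Cy5 and 0.55 with it in Cy3. In pair 2 the orientations lay close together, at -0.52 and -0.45, and the 4 arrays had an SD of 0.09. Fbxo43 was above 97.6% of all probes in pair 1, below 93.1% in pair 2 and below 66.9% in pair 3.

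Ppp2ca, the catalytic subunit of protein phosphatase 2A, had a value of 0.82 ± 1.39 (SD, n = 3 pairs) from its single-gene probe 2600. The pair values were 2.41, 0.20 and -0.15, and without pair 1 the mean was 0.03. In pair 1 the probe read 2.05, 3.24, 1.49 and 2.88. In pair 2 it read 0.39, 0.03, -0.36 and 0.75. In pair 3 it read 0.03, -0.29, -0.33 and -0.01.

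All 4 arrays of pair 1 lay above the 8 arrays of pairs 2 and 3 for this Ppp2ca probe, as they did for 1.87% of the 21569 probes, and within those 2 pairs the arrays scattered about 0. The probe that lists Cdkl3 or Ppp2ca, 8955, did not share this: its pair values were -0.22, -0.25 and -0.03, with a mean of -0.17 ± 0.12 (SD, n = 3 pairs). On the 4 arrays of pair 1 it read 0.07, -0.10, -0.11 and -0.73. Cdkl3 codes for a cyclin-dependent kinase-like protein, and which of the 2 transcripts this probe measured is not known. Counted together, the 2 probes put Ppp2ca at 0.33.

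Cdk4, the cyclin D kinase, had a value of 0.67 ± 1.38 (SD, n = 3 pairs) from probe 19296. The pair values were 2.23, 0.16 and -0.39, and without pair 1 the mean was -0.11. In pair 1 the probe read 3.88, 0.31, 2.99 and 1.74. In pair 2 it read 0.69, -0.15, 0.14 and -0.05. In pair 3 it read -0.42, -0.45, -0.40 and -0.28.

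For Cdk4 the arrays of pair 1 were all above 0 and those of pair 3 all below it, as for 1.07% of the 21569 probes, while pair 2 lay on both sides. As with Fbxo43, the pair 1 ratio was larger with aged RNA in Cy5, at 3.44, than with it in Cy3, at 1.02. For Ppp2ca the order was the other way, at 1.77 and 3.06. Cdk4 was above 98.4% of all probes in pair 1 and below 93.1% in pair 3.

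Pair 1 stood apart from the other pairs over the whole table as well. The SD of the pair values over all probes was 0.656 in pair 1, 0.323 in pair 2 and 0.310 in pair 3. The array medians on the log10 scale ran from -0.316 to 0.0501 in pair 1 and from -0.0050 to 0.0021 in pairs 2 and 3. The labels do not say whether pair 1 was handled differently. The part of any such difference in the values of Ppp2ca, Cdk4 and Fbxo43 was not tested. None of the 84 values of the 7 probes was exactly 0 or at the limits of the scale.

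The part of a value that keeps its sign when the dyes are swapped is a property of dye and probe if the values are dye ratios. Whether the choice of members drew on it is not recorded, so the counts that follow are a description. In a limma fit of 12 arrays with an aged over young term for each pair, 23.0% of 22543 probes passed for this dye effect at an adjusted p under 0.05, and 0 of the 6 single-gene probes of the members did. The 12 arrays hold only 3 RNA pairs. With 1 dye value per pair, without replicate 2 or without replicate 3, 0 probes of the whole table passed. The members' dye effects, Cy5 over Cy3, ran from -0.28 ± 0.13 for Ppp2ca to 0.48 ± 0.20 for Cdk4 (SE, 12 arrays), with adjusted p from 0.0886 to 0.572. Without replicate 1 these 2 effects were -0.09 and 0.12. The value of Fbxo43 was 0.39 ± 0.21 and that of Cdk1 was 0.22 ± 0.11. The 2 Map2k1 probes had 0.13 ± 0.15 and 0.12 ± 0.15. These are averages over pairs of unlike sign, and without replicate 1 they were -0.07 and -0.16.

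**Figure D2:**
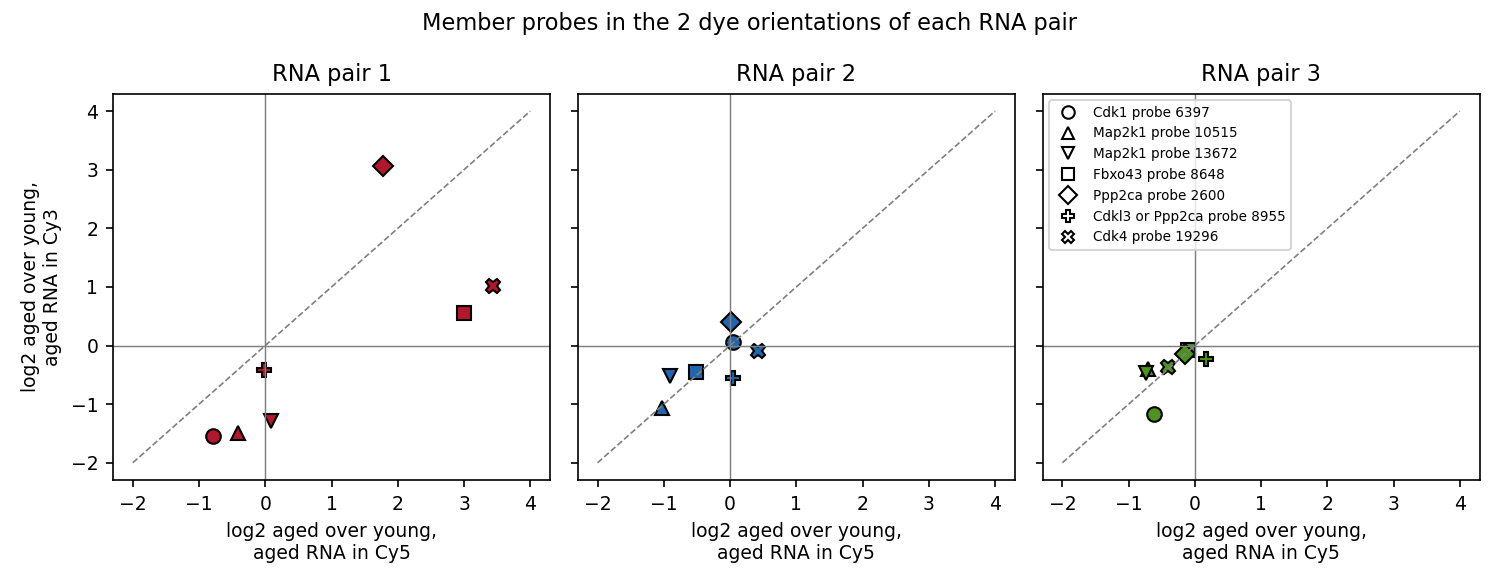
Log2 ratios of aged over young with the aged RNA in Cy5 (horizontal axis) and in Cy3 (vertical axis), each the mean of 2 arrays, for the 7 probes in the 3 RNA pairs; the dashed line marks equal values. In pair 1 Cdk4 (3.44 and 1.02) and Fbxo43 (3.0 and 0.55) lie below the line and Ppp2ca (1.77 and 3.06) above it. Map2k1 probes 10515 (-0.41 and -1.49) and 13672 (0.08 and -1.29) also lie below it in pair 1. All points of pairs 2 and 3 lie nearer to the line than these points.

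The same fit tested whether the 3 pairs differed in their aged over young ratio. Of all probes 5.75% passed this F test, and 4 of the members' 6 single-gene probes passed, those of Cdk1, Fbxo43, Ppp2ca and Cdk4. Since the members were chosen with the values of these arrays known, nothing is read from that count. Leaving out 1 replicate makes the test a comparison of 2 pairs. Without replicate 1 none of the 6 passed, against 3.68% of all probes. Without replicate 2 Ppp2ca and Cdk4 did, against 2.57%, and without replicate 3 Ppp2ca did, against 1.97%. For the ratio of aged over young itself, limma on the 3 pair values called 0% of 22543 probes at an adjusted p under 0.05, the members included, and 1523 had an unadjusted p under 0.05. An alternative fit of 12 arrays with the RNA pair as a random block called 330 probes. The units of that fit are technical repeats of the same 3 RNA pairs, under a correlation shared by all probes.

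The other genes of the pathways around the members were taken from 6 lists, and 33 of 138 listed genes had a probe of their own. None of the 33 passed the test between ages, in either direction, at the same 0% background. Their median was -0.02, against 0.00 over all 3089 genes with a single-gene probe. Of the 33 genes 5 were below 0 in all 3 pairs and 6 above, shares of 15.2% and 18.2% against 16.4% and 16.3% of all genes. Their pair values ran from -0.89 to 0.70, below the pair 1 values of Ppp2ca, Cdk4 and Fbxo43. The members were chosen with such values in view, so nothing is read from that contrast or from those with single members below.

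**Figure D3:**
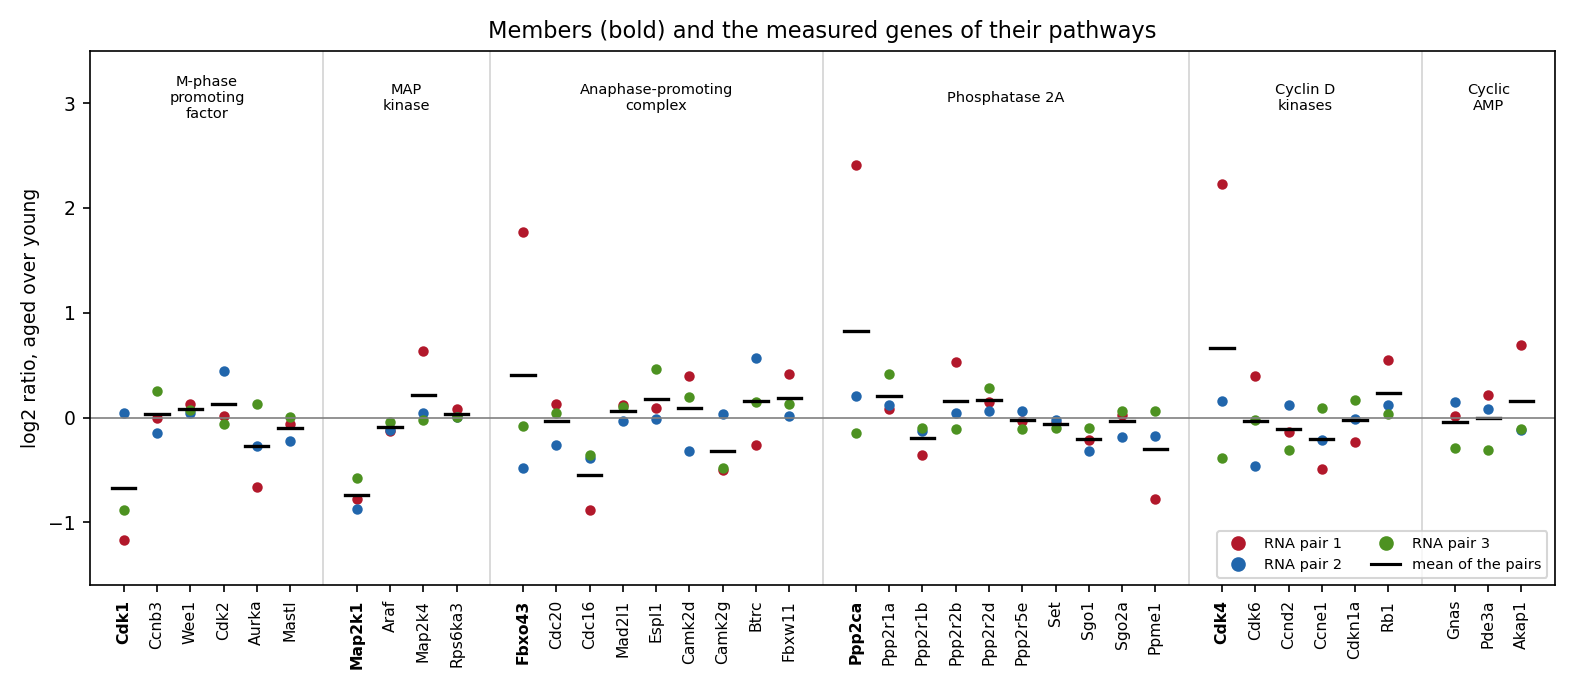
Log2 ratios of aged over young (vertical axis) of the 5 members, in bold, and of the 33 measured genes of 6 pathway lists, with a coloured point for each RNA pair and a black line for the mean of the pairs. The red points of Fbxo43, Ppp2ca and Cdk4 (1.77, 2.41 and 2.23) lie above all points of the listed genes, which reach 0.70. Nothing is read from this, since the members were chosen with their values in view.

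Around Cdk1, 5 of 22 listed genes were measured, 2 below 0 and 3 above. Wee1, the kinase that inhibits Cdk1 by phosphorylation, lay at 0.08 ± 0.04, and Mastl, the kinase whose activity restrains phosphatase 2A during M phase, at -0.10 ± 0.12 over 4 probes (SD, n = 3 pairs each). The Mastl probe means ran from -0.36 to 0.03. Aurka, a spindle pole kinase, lay at -0.27 ± 0.40, with pair values of -0.67, -0.28 and 0.13. Cdk2, the partner of cyclins E and A, lay at 0.13 ± 0.28, and the meiotic cyclin Ccnb3 at 0.03 ± 0.20. Only Wee1 had 1 sign in the 3 pairs.

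Around Map2k1, 3 of 18 listed genes were measured. Araf, a kinase of the Raf family upstream of Map2k1, lay at -0.09 ± 0.04 (SD, n = 3 pairs) and was below 0 in all 3 pairs. Rps6ka3, a ribosomal S6 kinase downstream of the MAP kinases, lay at 0.03 ± 0.04 over 2 probes, which lay at -0.06 and 0.12. Map2k4, which acts on the stress kinases, lay at 0.22 ± 0.36. All 3 means were nearer to 0 than that of Map2k1, a gene chosen with its values in view.

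Around Fbxo43, 8 of 35 listed genes were measured, 3 below 0 and 5 above. Cdc16, a subunit of the anaphase-promoting complex, had the lowest mean of the 33 genes, -0.54 ± 0.30 (SD, n = 3 pairs), with pair values of -0.89, -0.39 and -0.36. Cdc20, the activator of that complex, lay at -0.03 ± 0.21, and the checkpoint protein Mad2l1 at 0.06 ± 0.09. Camk2g, the calcium-dependent kinase that acts on Fbxo43 at fertilization, lay at -0.32 ± 0.31, with 2 probes at -0.65 and 0.01.

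Of the remaining genes in that group, Camk2d, a related kinase, lay at 0.09 ± 0.37 and the cohesin protease Espl1 at 0.18 ± 0.25 (SD, n = 3 pairs each). The ubiquitin ligase adaptors Btrc and Fbxw11, which recognise phosphorylated proteins, lay at 0.15 ± 0.42 and 0.19 ± 0.21. The means of the 3 Fbxw11 probes ran from -0.12 to 0.51. Of the 33 genes of the 6 pathway lists, Camk2g alone, by 1 of its probes, passed the F test among pairs (3.03%, against 6.83% of all 3089 genes).

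Around Ppp2ca, 9 of 26 listed genes were measured, 6 below 0 and 3 above. The scaffold subunits lay on both sides, Ppp2r1a at 0.21 ± 0.19 and Ppp2r1b at -0.20 ± 0.14 (SD, n = 3 pairs each), and each kept 1 sign in the 3 pairs. Sgo1, the shugoshin that brings phosphatase 2A to centromeres, lay at -0.21 ± 0.11 and was below 0 in all 3 pairs, while Sgo2a lay at -0.03 ± 0.14. The inhibitor Set lay at -0.06 ± 0.04. Ppme1, the methylesterase of the catalytic subunit, lay at -0.30 ± 0.43, with -0.78 in pair 1, where the single-gene probe of Ppp2ca lay at 2.41.

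The regulatory subunits Ppp2r2b, Ppp2r2d and Ppp2r5e lay at 0.15 ± 0.33, 0.16 ± 0.11 and -0.02 ± 0.08 (SD, n = 3 pairs each). The 2 probes of Ppp2r2b lay at -0.09 and 0.40. In pair 1 the 9 genes of this list had a median of -0.03. The single-gene probe of Ppp2ca lay at 2.41 in that pair, and the probe that lists Cdkl3 or Ppp2ca lay at -0.22.

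Around Cdk4, 5 of 22 listed genes were measured, 4 below 0 and 1 above. Cdk6, the other cyclin D kinase, lay at -0.03 ± 0.43 over 4 probes (SD, n = 3 pairs), with pair values of 0.39, -0.46 and -0.02. The Cdk6 probe means ran from -0.27 to 0.11. Ccnd2, a cyclin D, lay at -0.11 ± 0.21, and Ccne1, a cyclin of the G1 to S step, at -0.21 ± 0.29. The inhibitor Cdkn1a lay at -0.03 ± 0.20. Rb1, the retinoblastoma protein that Cdk4 phosphorylates, lay at 0.23 ± 0.27 and was above 0 in all 3 pairs, with 0.54 in pair 1.

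Cyclic AMP keeps the oocyte in prophase before Cdk1 is activated, and 3 of 15 listed genes of that control were measured. Pde3a, the phosphodiesterase that lowers cyclic AMP, lay at 0.00 ± 0.27 (SD, n = 3 pairs). Gnas, the stimulatory G protein subunit, lay at -0.04 ± 0.22, and the kinase anchor Akap1 at 0.16 ± 0.47. None had 1 sign in the 3 pairs.

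Markers of other ovarian cells were few on the array. Cumulus and granulosa cells had 4 of 18 listed markers with a probe of their own, with medians of 0.06, -0.21 and -0.05 in pairs 1, 2 and 3. Blood cells had 3 of 8, with medians of 0.25, 0.25 and 0.20, and stroma and vessels had 1 of 9, Pecam1 of the endothelium, at -0.15 ± 0.15 (SD, n = 3 pairs). The 4 measured oocyte markers had medians of -0.90, 0.27 and -0.21. The lowest of these medians was in pair 1, but the 4 markers differed. Bmp15 and Kit were lowest in pair 1, Zp2 in pair 3 and Dppa3 in pair 2. A link to the high pair 1 values of Ppp2ca, Cdk4 and Fbxo43 was not tested.

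The genes most like each member over the 12 arrays were found by Pearson's r of their centred ratios among 3086 other named genes. The arrays of a pair share their RNAs, so these r values describe the shape only. For Cdk4 they were Syne4 (r = 0.995, pair values of 2.51, 0.15 and -0.39) and Pipox (r = 0.993, pair values of 2.09, 0.11 and -0.26), and 48 genes had an r over 0.9. For Fbxo43 they were Ipo7 (r = 0.954) and Lrrc15 (r = 0.944), with 36 genes over 0.9. For Ppp2ca they were Ublcp1 (r = 0.955, pair values of 2.14, 0.22 and -0.16) and Ipo11 (r = 0.942), with 4 genes over 0.9.

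Other genes of the array were thus high in pair 1 alone as well. For Cdk1 the nearest were a variable gene segment of the immunoglobulin kappa chain (r = 0.952, pair values of -0.78, 0.19 and -0.52) and Setd4 (r = 0.932, pair values of -1.59, 0.64 and -1.11), with 13 genes over 0.9. For Map2k1 they were Sec11a (r = 0.946) and Ngly1 (r = 0.945), with 7 genes over 0.9. Sec11a followed the arrays of Map2k1 in shape only, since its mean was 0.14, while Ngly1 lay at -0.53, with pair values of -0.53, -0.68 and -0.39.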

How the data were processed

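The values deposited by the authors were 1 per probe and array on 12 2-colour arrays and were taken as log10 ratios from their range, -2 to 2. For scanner software, background correction, dye normalization, scaling and centring, the entry is: not given in the sources used here. Values exactly 0 or at the limits, 0.638% of all, were set to missing, and the rest were turned to log2 and centred on the array median. Signs were turned on arrays that carried aged RNA in Cy3, and the 4 arrays of a pair were averaged within each dye orientation and then with equal weight. Probes were named by the platform annotation; the RefSeq table held the gene IDs of 4247 of the 4262 single-gene probes, and 0 symbols changed.

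Tests were made with limma 3.58.1 in R 4.3.3, with the package data.table (version 1.17.8), on the 22543 probes with both orientations in all 3 pairs, with Benjamini-Hochberg adjustment at 0.05, two-sided. Figures were drawn with matplotlib 3.10.9 in Python 3.11.15. The fits were first tested on simulated data. The share of true changes that the test between ages finds with 3 pairs is not given here. Its 0% is therefore not read as an absence of change. The spread behind the p-values is that of these pairs or arrays only and may be technical. Members, lists and tests were chosen with earlier results of these data known. Named genes were the members, every list gene with a probe of its own, and the 2 genes of most like pattern for each member over at least 10 arrays. The gene positions of the annotation were not used, because no source names the build of the array.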

Additional observations from a re-analysis of the deposited data

Results flagged for a closer look

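Fbxo43 was above 0 on all 4 arrays of pair 1 and below 0 on all arrays of pairs 2 and 3, with pair values that differed by 2.26 between pairs 1 and 2 and by 1.86 between pairs 1 and 3. Cdk4 was above 0 on all arrays of pair 1 and below 0 on all arrays of pair 3, and these pair values differed by 2.62. In the limma fits that leave out 1 replicate and so compare 2 pairs, the Cdk4 difference passed at an adjusted p under 0.05 and the Fbxo43 differences did not. The genes were chosen with these values known, so nothing is read from these calls. Among 21 sets of 4 arrays, 7 probes in 3 pairs, no array lay far enough from the other 3 to be called an outlier by Dixon's test.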

How the results depend on the processing

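Of 14 alternatives, 12 could change the value of Cdk1 or Map2k1, and each stayed below 0 in 11 of these. Without a replicate Cdk1 ran from -1.03 to -0.42 and Map2k1 from -0.83 to -0.68. The exception for both was the reading of the values as already aged over young, which takes the part that keeps its sign with the dyes and gave 0.22 for Cdk1 and 0.13 for Map2k1. Fbxo43, Ppp2ca and Cdk4 moved by less than 1 SD over pairs in every alternative, but that SD was over 1. Without replicate 1 Fbxo43 fell to -0.28, Ppp2ca to 0.03 and Cdk4 to -0.11. With aged RNA in Cy3 only Fbxo43 lay at 0.01, and Ppp2ca at -0.28 when read as already aged over young.

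The count of probes called between ages was 0 in the other settings, 14 without centring and 52 without replicate 1. It was 330 with the 12 arrays as units and the RNA pair as a random block. The dye effect was called for 5182 probes, for 0 with labelling 1 or labelling 2 alone, for 0 with 1 dye value per pair, and for 0 to 6603 when 1 replicate was left out. Differences among pairs were called for 1296 probes, for 0 with labelling 1 or labelling 2 alone, and for 445 to 830 when 1 replicate was left out. No cause of these changes in count was tested. No dye effect of a member passed in the main fit or in the 8 alternatives in which it was computed. It was not computed without the pair 1 array of lowest median. The dye effect of Map2k1 probe 13672 was -0.0093 with labelling 2 alone. Leaving out 1 replicate at a time gave dye effects from -0.025 to 0.60 for Fbxo43, from -0.069 to 0.28 for Map2k1 probe 10515 and from -0.16 to 0.28 for probe 13672; the values below 0 were those without replicate 1. The ranges were 0.12 to 0.73 for Cdk4, -0.42 to -0.09 for Ppp2ca and 0.13 to 0.33 for Cdk1.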
